A study of Mus musculus with 4 samples.

Results

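The 10 genes described here encode CC and CXC chemokines that macrophages make: Ccl2, Ccl3, Ccl4, Ccl6, Ccl7, Ccl9, Ccl12, Cxcl2, Cxcl10 and Cxcl16. They were taken by symbol from a count table of 17194 genes, and all 10 were in it and passed the filter on low counts. Polyadenylated RNA had been sequenced from mouse macrophages derived from bone marrow, collected on day 2 of treatment with RANKL, which drives their differentiation into osteoclasts. All 4 libraries had received RANKL, and they differed in the siRNA: 2 were labelled siControl and 2 siHells, an siRNA against Hells, a chromatin remodeller. The sources used here give no mouse strain or age, no siRNA sequence and no number of animals or cultures, so each p-value reflects no more than how far these libraries differed, which may be technical.

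Chemokines are small secreted proteins that steer the migration of leukocytes through G protein-coupled receptors on the target cell. The spacing of their first cysteines divides them into families such as CC and CXC, and many of their genes lie side by side in clusters that arose by duplication. In bone marrow, ligands of CCR2 and CCR1 recruit monocytes and osteoclast precursors, and macrophages given RANKL or inflammatory signals make several chemokines themselves.

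Total counts ranged from 48873635 to 55642819, and replicate libraries were further apart than sampling noise (chi-square per gene of 3.45 in siControl and 6.26 in siHells). Hells itself was lower in siHells, at 14.9 ± 0.390 CPM (counts scaled to a common library size, mean ± SD, n = 2) against 29.7 ± 0.459 CPM (SD, n = 2), with a log2 fold change of -0.99 (adjusted p = 5.96e-09). All 10 macrophage markers were present, and their summed level was 16290 and 16440 CPM in siControl and 26510 and 25720 CPM in siHells. Most of that sum was Lyz2, at a mean of 11350 CPM in siControl and 17280 CPM in siHells. Of these markers 9 rose and 1, Cd68, fell (log2 fold change -0.28), while 14 of 14 osteoclast genes fell, with the smallest p for Mmp9, Ctsk, Acp5 and Atp6v0d2. In bulk RNA, fewer cells of a type and less RNA per cell cannot be told apart. Changes are log2 fold changes of siHells over siControl from the edgeR quasi-likelihood test, adjusted over 15651 genes, and a gene is said to rise or fall where the adjusted p was under 0.05.

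The chemokines did not move as a block. Ccl7, Ccl12, Cxcl2 and Ccl6 rose, Ccl3, Ccl4, Ccl9 and Cxcl10 fell, and Ccl2 and Cxcl16 did not pass the test. That is 8 of 10 members (80.0%), beside 58.5% of all genes tested, with 4 in each direction, beside 29.0% of all genes that rose and 29.5% that fell. For 6 members the called change reached 2-fold or more, beside 12.3% of all genes. The CPM of the groups did not overlap for 9 members, beside 78.5% of all genes. The members' median log2 fold change was 0.08, and that of all genes was -0.0043.

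Per length of exon, Ccl9, Ccl6 and Cxcl16 were far above the other members in both groups. In siControl the order, in CPM per kilobase (mean ± SD, n = 2), was led by Ccl9 at 438 ± 3.69, followed by Ccl6 at 127 ± 0.735, Cxcl16 at 47.0 ± 0.710 and Ccl3 at 17.7 ± 2.56. Below them lay Ccl4 at 9.70 ± 1.56, Ccl2 at 4.61 ± 0.191, Ccl7 at 3.33 ± 0.687, Cxcl10 at 3.1 ± 0.0801, Ccl12 at 1.46 ± 0.247 and Cxcl2 at 0.337 ± 0.0289. Among neighbours in this order, Ccl7 and Cxcl10 alone overlapped between their libraries. In siHells the first 3 places were unchanged, with Ccl9 at 235 ± 2.18, Ccl6 at 140 ± 1.70 and Cxcl16 at 47.6 ± 2.12 CPM per kilobase. The middle of the order then held Ccl7 at 7.27 ± 1.03, Ccl3 at 6.50 ± 1.30, Ccl12 at 5.63 ± 0.0567 and Ccl2 at 5.51 ± 0.121, where each overlapped the next. Ccl4 followed at 3.49 ± 0.860, and Cxcl10 took the last place, at 0.696 ± 0.0342, under Cxcl2 at 0.919 ± 0.0130 CPM per kilobase.

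**Figure D1:**
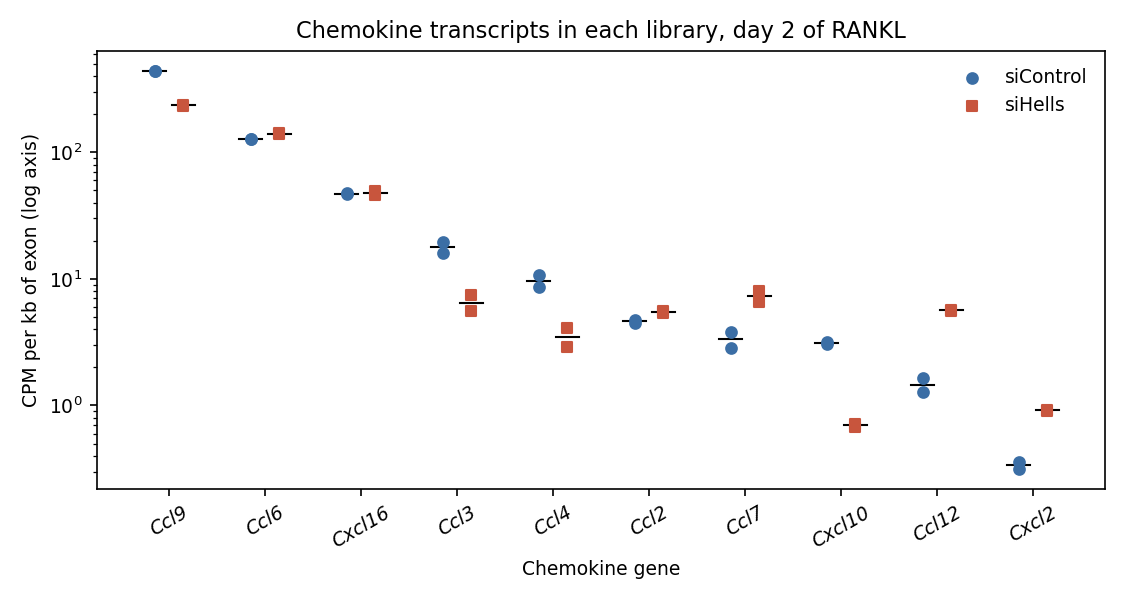
Level of each chemokine transcript in CPM per kilobase of exon (log axis), with 1 point per library, siControl as circles and siHells as squares, and a black line at the mean of the 2 libraries. Ccl9, Ccl6 and Cxcl16 lead in both groups. The siHells points lie above siControl for Ccl7, Ccl12 and Cxcl2, and by less for Ccl6 and Ccl2. They lie below it for Ccl9, Ccl3, Ccl4 and Cxcl10.

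Ccl9 held most of the members' summed level. The 10 members together reached 1748 and 1737 CPM under siControl and 1136 and 1135 CPM under siHells. Ccl9 held 76.8% and 76.4% of this sum in siControl and 62.5% and 63.3% in siHells. The share of Ccl6 was 13.1% in each siControl library and 22.4% and 22.0% in siHells, and that of Cxcl16 went from 8.04% and 8.26% to 13.0% and 12.3%. The other 7 members held under 1% each in every library.

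RefSeq promoter windows, from 250 bases before to 50 after the transcript start, were at hand for 6 of the members (Ccl3, Ccl6, Ccl9, Ccl12, Cxcl2 and Cxcl10). Those of Cxcl10 and Cxcl2 both match the site of NF-kB, the main inflammatory transcription factor. They are shown because the transcripts of these genes moved in opposite directions. Those of the adjacent Ccl9, which matches that site too, and Ccl6 are shown because their transcripts parted as well. The part of NF-kB in these changes was not tested. The windows of GRCm38.p6 are chr5:92348840-92349139 on the minus strand for Cxcl10, chr5:90903649-90903948 on the plus strand for Cxcl2, chr11:83578587-83578886 on the minus strand for Ccl9 and chr11:83593038-83593337 on the minus strand for Ccl6. They are written 5′ to 3′ along the gene, with capitals at matches to the kappaB consensus, the interferon element core GAAANNGAA, the AP-1 site TGANTCA, the glucocorticoid half-site AGAACA and the TATA box TATAAA, searched on both strands.
Cxcl10: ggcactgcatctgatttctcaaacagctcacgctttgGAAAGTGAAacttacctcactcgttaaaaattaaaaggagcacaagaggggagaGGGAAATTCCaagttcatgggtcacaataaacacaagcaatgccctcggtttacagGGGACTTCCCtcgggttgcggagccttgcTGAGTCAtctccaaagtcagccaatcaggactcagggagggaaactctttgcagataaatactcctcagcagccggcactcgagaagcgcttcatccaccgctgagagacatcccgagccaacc
Cxcl2: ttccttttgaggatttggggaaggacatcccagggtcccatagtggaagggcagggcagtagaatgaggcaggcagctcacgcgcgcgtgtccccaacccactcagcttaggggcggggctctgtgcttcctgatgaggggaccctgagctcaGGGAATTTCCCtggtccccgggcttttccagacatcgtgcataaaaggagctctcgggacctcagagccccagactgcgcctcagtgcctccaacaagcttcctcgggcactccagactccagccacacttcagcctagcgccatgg
Ccl9: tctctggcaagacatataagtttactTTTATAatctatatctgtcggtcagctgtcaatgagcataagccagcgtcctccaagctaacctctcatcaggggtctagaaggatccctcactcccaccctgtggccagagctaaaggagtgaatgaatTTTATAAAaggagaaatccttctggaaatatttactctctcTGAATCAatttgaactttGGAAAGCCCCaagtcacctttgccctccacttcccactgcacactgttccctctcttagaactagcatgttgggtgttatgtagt
Ccl6: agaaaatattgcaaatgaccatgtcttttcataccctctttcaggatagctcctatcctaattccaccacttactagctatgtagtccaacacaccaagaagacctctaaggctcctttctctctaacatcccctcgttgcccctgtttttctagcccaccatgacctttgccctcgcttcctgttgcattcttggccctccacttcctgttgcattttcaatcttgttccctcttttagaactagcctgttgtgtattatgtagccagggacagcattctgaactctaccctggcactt

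The kappaB consensus was found in 3 of the 6 windows, those of Cxcl10, Cxcl2 and Ccl9, beside 4.50% of 32817 promoter windows. In Cxcl10 it began 159 and 103 bases upstream of the start, with the interferon core at 213 bases and an AP-1 match at 74 bases upstream. Cxcl2 held a pair of overlapping matches on opposite strands, beginning 97 and 96 bases upstream. In Ccl9 the match lay 35 bases upstream, with AP-1 at 53 bases and TATA matches at 94 and 92 bases that overlap on opposite strands, and a further TATA match at 224 bases. Ccl6 had no match to any of the 5 motifs, although its window and that of Ccl9 aligned over 228 bases, of which 146 (64.0%) were identical. Of the windows not shown, Ccl3 held the interferon core on the opposite strand 39 bases upstream, and Ccl12 held a TATA box 31 bases upstream. The interferon core was in 8.55% of all windows, AP-1 in 7.81%, the TATA box in 13.6% and the glucocorticoid half-site, found in none of the 6, in 19.0%. These are letter matches in 1 window, with no measure of binding.

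Ccl2, Ccl7 and Ccl12 encode the monocyte chemoattractants that act on CCR2, the receptor that brings monocytes out of the marrow and into inflamed tissue. Ccl12, also known as MCP-5, showed the largest rise among the members. It had 38 and 44 counts with siControl against 165 and 161 with siHells, or 0.691 and 0.879 CPM against 3.04 and 3.0 CPM. Both siHells libraries lay above both siControl libraries, the difference was 3.86-fold (log2 fold change 1.95, SE 0.23, adjusted p = 2.37e-06), and the ratio of summed counts had a 95% exact binomial interval of 3.03 to 4.99, which covers counting error only.

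Ccl7, also known as MCP-3, a ligand of CCR1 and CCR3 as well as CCR2, had 168 and 114 counts under siControl and 284 and 344 under siHells. The levels were 3.06 and 2.28 CPM against 5.24 and 6.41 CPM, so the libraries of each group were spread but the groups did not overlap. It rose 2.17-fold (log2 fold change 1.12, SE 0.17, adjusted p = 4.02e-05).

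Ccl2, also known as MCP-1, the best known of these monocyte attractants, was more abundant per length than either in siControl. It had 297 and 255 counts with siControl against 345 and 331 with siHells, or 5.40 and 5.10 CPM against 6.36 and 6.17 CPM. The groups did not overlap, but the log2 fold change of 0.25 (SE 0.12) missed the threshold (adjusted p = 0.0864). Within a library, Ccl7 counts were 0.566 and 0.447 of those of Ccl2 under siControl and 0.823 and 1.04 under siHells, and Ccl12 counts were 0.128 and 0.173 of them under siControl and 0.478 and 0.486 under siHells. Neither ratio overlapped between groups, for a two-sided exact permutation p = 0.333, the smallest that 2 libraries against 2 can give.

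Stromal cells of the marrow also make CCR2 ligands, and stromal transcripts were present in these libraries. Of 8 stromal markers 7 were in the table, and their summed level was 997.3 and 1021 CPM in siControl and 1795 and 1765 CPM in siHells. Col1a1, Col1a2, Acta2, Dcn, Pdgfrb and Cxcl12 rose and Col3a1 fell, and their part in the rise of Ccl7 and Ccl12 was not tested.

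Ccl3, Ccl4, Ccl6 and Ccl9 belong to the macrophage inflammatory protein group. Ccl3, Ccl6 and Ccl9 act on CCR1, a receptor of osteoclast precursors, and Ccl4 attracts monocytes and T cells. Ccl9, also known as MIP-1 gamma and made by osteoclasts, was the most abundant member. It had 73834 and 66425 counts under siControl and 38462 and 38573 under siHells, at 1343 and 1327 CPM against 709.4 and 718.8 CPM. With libraries of a group this close, the 1.87-fold fall carried the smallest p of the members (log2 fold change -0.90, SE 0.026, adjusted p = 1.59e-13).

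Ccl3, also known as MIP-1 alpha, which promotes osteoclast formation, had 670 and 749 counts with siControl against 232 and 305 with siHells. Its levels of 12.19 and 14.97 CPM against 4.279 and 5.684 CPM did not overlap, and it fell 2.72-fold (log2 fold change -1.44, SE 0.14, adjusted p = 1.15e-06). Ccl4, also known as MIP-1 beta, had 312 and 357 counts against 103 and 145, or 5.68 and 7.13 CPM against 1.90 and 2.70 CPM. It fell 2.77-fold (log2 fold change -1.47, SE 0.18, adjusted p = 5.08e-06). The pair kept a near constant ratio: there were 2.15 and 2.1 Ccl3 counts per Ccl4 count in siControl and 2.25 and 2.1 in siHells. The log2 difference was 0.04 (two-sided exact permutation p = 0.667). With 2 libraries against 2 the smallest possible p is 0.333, so that test cannot tell a constant ratio from a changed one.

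Ccl6, an abundant chemokine of rodent myeloid cells that acts on CCR1, did not follow Ccl9. It had 12631 and 11406 counts under siControl and 13776 and 13404 under siHells, or 229.8 and 227.9 CPM against 254.1 and 249.8 CPM. The groups did not overlap and it rose 1.10-fold (log2 fold change 0.14, SE 0.032, adjusted p = 0.00154), a call that was lost when libraries were scaled by their totals alone (log2 fold change 0.07, adjusted p = 0.0853). The ratio of Ccl6 to Ccl9 counts was 0.171 and 0.172 under siControl against 0.358 and 0.347 under siHells (two-sided exact permutation p = 0.333, the smallest possible).

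Dendritic cells also make Ccl3, Ccl4 and Cxcl10, and some of their markers fell. Of 10 such markers 8 were in the table, with a summed level of 159.8 and 165.2 CPM in siControl and 18.9 and 16.8 CPM in siHells. H2-Aa, H2-Ab1, H2-Eb1 and Itgax, which macrophages also express, fell, Flt3 and Zbtb46 rose, and Clec9a and Siglech stayed under 0.5 CPM in each group's mean. Their part in the falls was not tested.

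**Figure D2:**
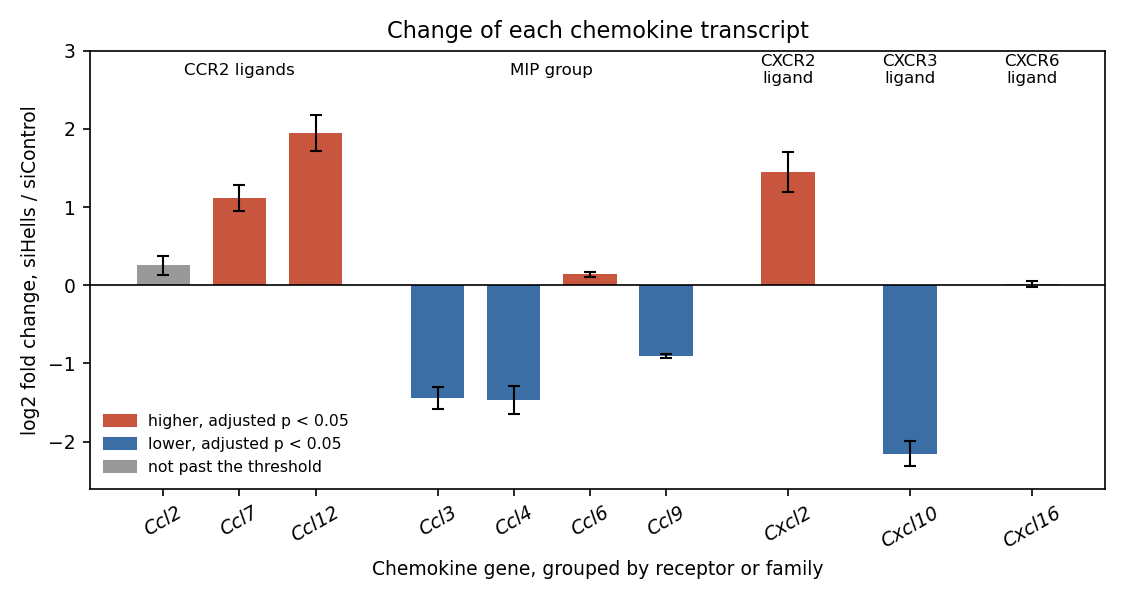
Log2 fold change of siHells over siControl for each chemokine transcript, grouped by the main receptor of its protein or, for Ccl3, Ccl4, Ccl6 and Ccl9, by the macrophage inflammatory protein (MIP) group, with error bars of 1 SE from the edgeR fit, red bars for genes that rose, blue for those that fell and grey for those that did not pass the test. Among CCR2 ligands Ccl7 and Ccl12 rose, in the MIP group Ccl3, Ccl4 and Ccl9 fell while Ccl6 rose slightly, and Cxcl2 and Cxcl10 lie on opposite sides of 0.

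Of the CXC chemokines, Cxcl10 encodes a ligand of CXCR3 that interferons induce and that attracts activated T cells. It had 377 and 356 counts with siControl against 82 and 87 with siHells, or 6.86 and 7.11 CPM against 1.51 and 1.62 CPM. Art3, on the opposite strand, overlaps 5.91% of the Cxcl10 exon bases, and reads of both cannot be told apart there without strand. The groups lay far apart for their spread, and the 4.45-fold fall was the largest among the members (log2 fold change -2.15, SE 0.16, adjusted p = 1.08e-08). Other interferon-stimulated genes mostly went the other way, with 19 of 30 higher and 5 lower, beside 29.0% and 29.5% of all genes tested. Their median log2 fold change was 0.36. Irf7, Oasl2, Stat2 and Oas2 rose (log2 fold change 1.06, 1.0, 0.90 and 0.79), and the 5 that fell were Gbp3, Ifit2, Gbp2, Isg15 and Ifit3 (-0.78, -0.38, -0.37, -0.20 and -0.14), named after their values were seen.

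Cxcl2, a neutrophil attractant that acts on CXCR2, was the scarcest member in siControl per length. It had 36 and 37 counts under siControl and 102 and 103 under siHells, at 0.655 and 0.739 CPM against 1.88 and 1.92 CPM. It rose 2.73-fold (log2 fold change 1.45, SE 0.25, adjusted p = 0.000154), and the interval of the ratio of summed counts was 2.08 to 3.62. Of its 50-base stretches, 5.84% also occur in transcripts annotated to Cxcl3, so a few of its reads may be uncertain.

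Cxcl16 is made as a membrane protein that takes up oxidised lipoprotein and, once cut off by the protease ADAM10, attracts cells that carry CXCR6. It had 7721 and 7181 counts with siControl against 8035 and 7467 with siHells. The levels of 140.5 and 143.5 CPM against 148.2 and 139.2 CPM overlapped, and the log2 fold change was 0.02 (SE 0.039, adjusted p = 0.727). Summed over each group, the ratio of counts was 1.01, with a 95% interval of 0.990 to 1.04. On the opposite strand Zmynd15 overlaps 18.3% of its exon bases, and reads of both cannot be told apart without strand. Zmynd15 had 542 and 518 counts under siControl and 768 and 595 under siHells (log2 fold change 0.32, adjusted p = 0.0237). Adam10 and Adam17 did not pass the test (log2 fold change -0.05 and -0.03, adjusted p = 0.212 and 0.367).

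In the genome, 8 of the members lie on chromosome 11 and 2 on chromosome 5 (GRCm38, GENCODE M21). Ccl2 (82035571 to 82037453), Ccl7 (82045712 to 82047525) and Ccl12 (82101845 to 82103400) follow each other on the plus strand. Ccl9 (83572919 to 83578636), Ccl6 (83587882 to 83593087) and Ccl3 (83647844 to 83649355) on the minus strand, and Ccl4 (83662584 to 83664683) on the plus strand, lie in a second run. Its first member, Ccl9, lies 1469.52 kb beyond Ccl12. Cxcl16 lies apart on the minus strand of the same chromosome (70453983 to 70459984). Cxcl2 (90903871 to 90905938, plus strand) and Cxcl10 (92346638 to 92348889, minus strand) are on chromosome 5. All 10 are protein-coding, and the spans run over exons and introns of the whole gene.

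Changes differed along these runs, which hold few genes each and were not tested against all genes. Of all genes tested, 29.0% rose and 29.5% fell. In the first run 2 of 4 tested ligands rose and none fell. Ccl8, at 30 and 38 counts with siControl against 41 and 46 with siHells, did not pass the test (log2 fold change 0.32, adjusted p = 0.414). In the second run 3 of 5 fell and Ccl6, which lies 9.24 kb from Ccl9 and 54.76 kb from Ccl3, rose slightly. Ccl5, an attractant of T cells and monocytes at the start of that run, had 95 and 94 counts against 93 and 80 (log2 fold change -0.17, adjusted p = 0.529). The noncoding E230016K23Rik overlaps the span of Ccl6 on the opposite strand with no shared exon base, and it fell from 43 and 27 counts to 12 and 9 (log2 fold change -1.76, adjusted p = 0.00283). In the run that holds Cxcl2, 3 of 4 tested ligands rose: Cxcl2, Pf4 and Ppbp, with Cxcl1 at 14 and 14 counts against 24 and 27 (log2 fold change 0.82, adjusted p = 0.105). Of the run that holds Cxcl10, Cxcl9 and Cxcl11 were not analysed here.

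**Figure D3:**
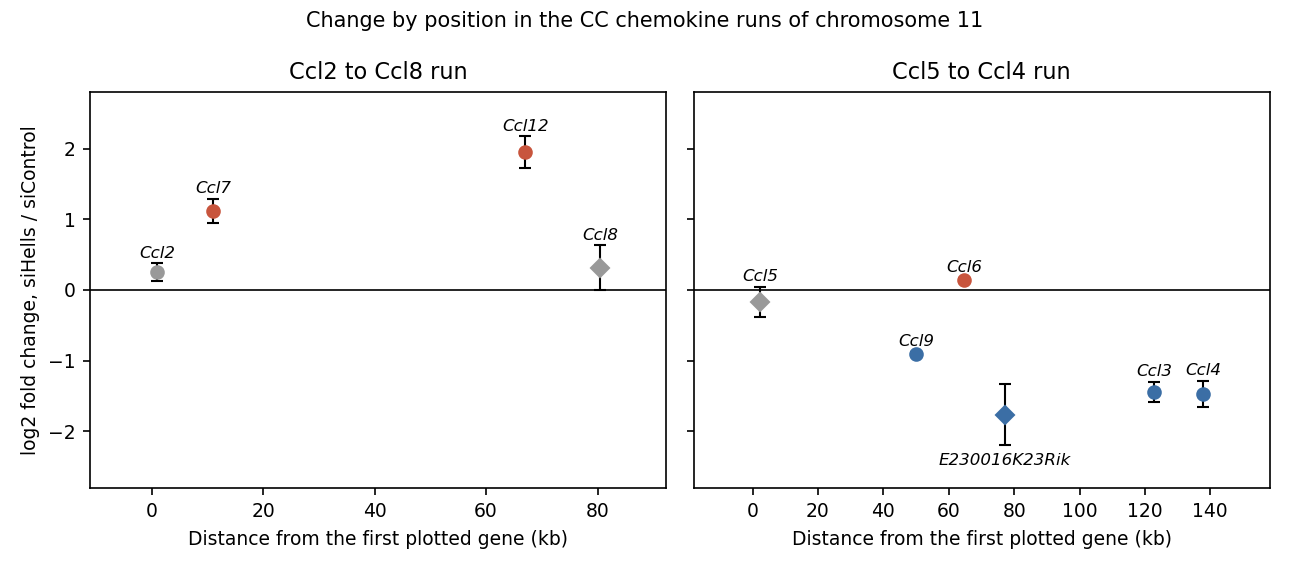
Log2 fold change (siHells over siControl, error bars 1 SE) against distance in kb for the tested genes of the CC chemokine runs of chromosome 11, with members as circles and other genes as diamonds, red for higher, blue for lower and grey for not past the threshold. All 4 genes of the Ccl2 run lie above 0, while in the other run Ccl9, Ccl3 and Ccl4 lie below 0 on either side of Ccl6.

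The other chemokine ligands in the table, counted without Ccl27b (given below), numbered 12. Beside 29.0% of all genes that rose and 29.5% that fell, 5 of the 11 ligands tested rose and 1 fell. Pf4, platelet factor 4, which macrophages also make, was by far the most abundant of them. It had 2734 and 2303 counts under siControl and 8368 and 8394 under siHells, and it rose from 47.9 ± 2.63 to 155.4 ± 1.47 CPM (SD, n = 2), by 1.70 on the log2 scale (SE 0.045, adjusted p = 5.87e-14). Ppbp, its neighbour, rose too (1.02), as did Ccl24, an eotaxin that attracts eosinophils through CCR3 (1.32), Cx3cl1 (0.59) and Cxcl12, the stromal ligand of CXCR4 (0.50). Ccl27a fell (-0.71), and Ccl25 (-0.31, adjusted p = 0.187) and Cxcl14 (-0.18, adjusted p = 0.408) did not pass the test. Cxcl5, at 5 and 4 counts with siControl against 11 and 8 with siHells, was below the filter. Of the other megakaryocyte markers tested, Itga2b rose from 1.19 to 4.45 CPM, and Gp1bb, at 0.445 and 0.519 CPM, did not pass the test (adjusted p = 0.650). Their part in the rise of Pf4 and Ppbp was not tested.

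The receptors of the members' proteins fell or did not pass the test. Of the 11 tested receptor genes reported here 3 fell and 2 rose, beside 29.5% of all genes tested that fell and 29.0% that rose. Ccr1, the receptor of Ccl3, Ccl6 and Ccl9, had 8539 and 7834 counts under siControl and 3001 and 2786 under siHells and fell from 155.9 ± 0.848 to 53.6 ± 2.43 CPM (log2 fold change -1.54, adjusted p = 1.04e-13). Ccr2, the receptor of Ccl2, Ccl7 and Ccl12, fell from 21.03 ± 0.329 to 8.10 ± 0.164 CPM (SD, n = 2; log2 fold change -1.38, adjusted p = 1.31e-09), so it went down while 2 of its ligands went up. Ccr3 showed the largest fall of these receptors, from 21.9 ± 0.124 to 2.59 ± 0.137 CPM (log2 fold change -3.08, adjusted p = 1.49e-12).

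Cxcr2, at 125 and 100 counts with siControl against 96 and 102 with siHells, and Cxcr3, at 120 and 136 against 93 and 124, did not pass the test (log2 fold change -0.22 and -0.28, adjusted p = 0.357 and 0.274), and Cxcr6 was not analysed here. The receptors that rose were Cxcr4 (log2 fold change 0.31) and Cx3cr1 (0.45), whose ligands are Cxcl12 and Cx3cl1. Ccrl2 (-0.17), Ccr9 (-0.68), Ackr3 (0.71) and Ackr4 (-1.32, adjusted p = 0.0574) did not pass the test, the last 3 at 20 counts or fewer in each library. Ccr1l1, at 13 and 7 against 4 and 7 counts, was below the filter.

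**Figure D4:**
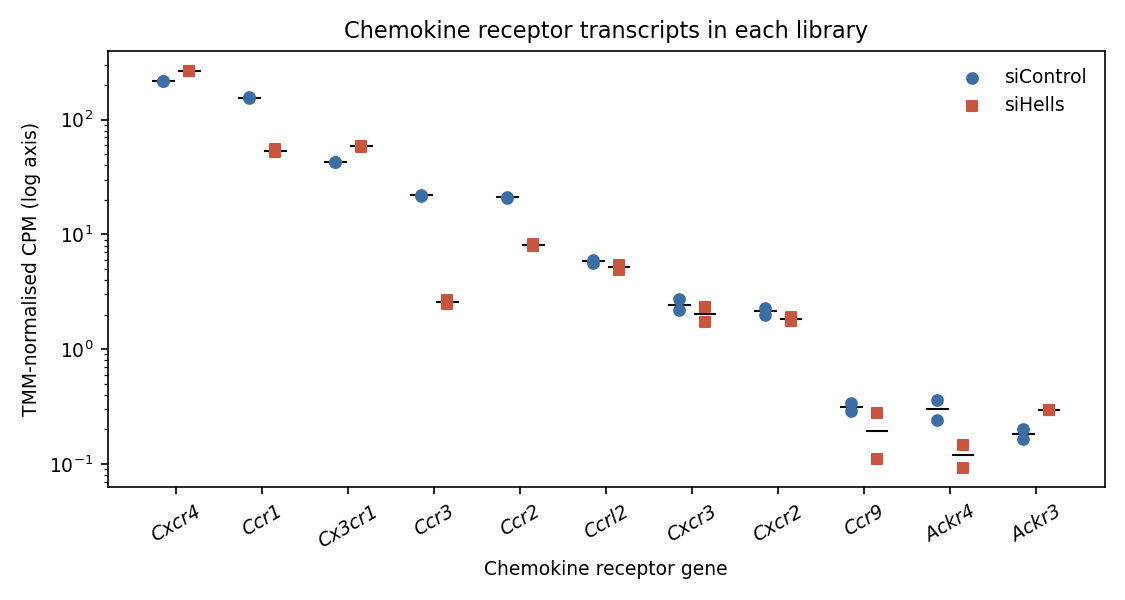
Level of the 11 chemokine receptor transcripts reported here, in CPM (log axis, to be compared within a gene), with 1 point per library, siControl as circles and siHells as squares, and a black line at the mean of the 2 libraries. Ccr1, Ccr3 and Ccr2 are lower in siHells, and Cxcr4 and Cx3cr1 are higher.

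Downstream of these receptors, 22 of 36 signalling genes rose and 7 fell, with a median log2 fold change of 0.17. Beside this list and those below, 29.0% of all genes tested rose and 29.5% fell. The GTPase Rac2 (-0.98) and the receptor kinase Grk3 (-0.89) fell, and the kinase Lyn (0.89) and Arrb2 (0.94), an arrestin that ends receptor signalling, rose. Of 9 tested proteases that shed or trim chemokines 4 fell and 3 rose. Mmp9 (-3.37), Mmp12 (-3.83), which cleaves many chemokines, and Mmp14 (-1.83) fell, while Mmp8 rose (2.09).

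Some chemokine transcripts are short-lived, and proteins that bind AU-rich elements hasten or slow their decay. Of 15 genes for either role 8 rose and 3 fell. The latter were Elavl1 (log2 fold change -0.31), which encodes the stabilising protein HuR, Hnrnpd (-0.19) and Cnot6 (-0.13). Zfp36, which encodes tristetraprolin, rose from 69.8 to 110.2 CPM (log2 fold change 0.66), its relatives Zfp36l1 and Zfp36l2 rose by 1.61 and 0.85, and Zc3h12a, the RNase regnase-1, by 0.90. Genes of the NF-kB pathway were split, 10 of 21 higher and 9 lower (median -0.0059), with Nfkbiz (1.09) and Myd88 (0.51) up and Relb (-0.58) and Tnip1 (-0.69) down.

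Among 19 tested inflammatory genes other than chemokines 11 fell and 7 rose, for a median log2 fold change of -0.43. Traf1 (-1.94) and Il1rn (-1.54), which encodes the interleukin-1 receptor antagonist, fell, and Saa3 (7.46) and Marcksl1 (1.17) rose. Transcripts induced within minutes by handling or stress went both ways, 9 of 19 higher and 5 lower, with Fos (-0.88), Atf3 (-1.18) and Junb (-0.95) down and Btg2 (1.22) up. All 14 glucocorticoid-induced genes rose, with a median of 3.22 and Fkbp5 (5.44), Ddit4 (5.24), Tsc22d3 (3.68) and Zbtb16 (5.99) at the smallest p, and that list was drawn up with this pattern known. The part of these lists in the changes of the chemokines was not tested.

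Markers of further marrow cells mostly fell or did not pass the test. Of 10 neutrophil markers 9 were in the table, at a summed 488.4 and 494.8 CPM in siControl and 417.8 and 394.1 CPM in siHells, with Ltf, Camp, Ngp, S100a9 and Mpo lower and Retnlg higher. B cell markers came to 25.9 and 26.2 against 9.98 and 9.58 CPM, from Ighm and Cd79b only. T and NK cell markers came to 2.38 and 3.12 against 0.885 and 0.690 CPM, from Trac and Nkg7 only. Ighm and Trac fell (log2 fold change -2.04 each), and Cd79b and Nkg7 did not pass the test. Mast cell and basophil markers reached at most 4.26 CPM in any library, with Kit lower and Cpa3 higher. The other listed markers of B, T and NK cells, among them Ms4a1 and Cd3e, were not analysed here.

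By the distance between log2 CPM values centred over the 4 libraries, the genes with a profile nearest to that of Ccl12 were Masp1 (0.0831), Adamts12 (0.0978) and Camk2b (0.106). For Cxcl10 they were Fnbp1l (0.0328), Ceacam19 (0.0750) and Prdm1 (0.0970). These distances rest on 4 libraries alone.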

How the data were processed

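The authors deposited raw read counts per gene symbol in 1 table with a column for each of the 4 libraries, whose headers name the samples. Listed in the submitters' processing notes, with no roles, are HISAT2 2.1.0, StringTie 2.1.3b, Trimmomatic 0.38, FastQC, edgeR and the build mm10. The labels' protocols name 2 library kits for every sample, 1 of them stranded, and the sources used here do not give the strand setting of the counting. The lowest count in the table was 1, so genes with 0 reads in a library were not analysed here.

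Genes were kept by filterByExpr with a minimum count of 10 and total of 15, which removed 1543 of 17194. They were scaled by TMM and tested with the edgeR 4.0.16 quasi-likelihood test (R 4.3.3), with group as the only term, 2 residual degrees of freedom and Benjamini-Hochberg adjustment over 15651 genes. The procedure was tested on simulated counts with 200 changed genes and the same dispersion for every gene. It recovered 28.9% of 1.2-fold and 95.5% of 2-fold changes, with 9 false among 143 calls. Far fewer genes changed there than were called here, so these rates may not hold for these data. CPM are TMM-normalised. Exon lengths and positions came from GENCODE M21, which matched 91.0% of symbols. Motifs were searched in the GRCm38.p6 promoter windows of RefSeq. Total counts ranged from 48873635 to 55642819, and the scarcest members rest on under 50 counts in siControl, and intervals cover counting error only.

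The members and gene lists were chosen with earlier results of these data known. The named genes were all members, every other ligand and receptor in the table (1 receptor is not reported here), genes within the ligand runs (gaps under 1 Mb), up to 4 of smallest p per list, and the 3 nearest profiles (mean log2 CPM of at least 1) of the members with the largest rise and fall. Further genes, named to spell out a small count, were picked with their values in view. As alternatives, the following were tried: other scalings (DESeq2 size factors, upper quartile, library totals), filters, DESeq2 1.42.0 and limma voom 3.58.1, a replicate block, each library left out, a threshold of 0.01 and a test against a 1.5-fold change.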

Additional observations from a re-analysis of the deposited data

How the results depend on the processing

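Among the members, the count of 4 higher and 4 lower held under DESeq2, limma voom, both other filters, DESeq2 size factors, upper-quartile scaling, a threshold of 0.01 and each library left out. It became 3 higher and 4 lower with library totals alone and in the test against a 1.5-fold change, where Ccl6 lost its call. Cxcl16, which never passed the test, changed sign, with log2 fold changes of -0.0152 under upper-quartile scaling, -0.0559 with library totals, -0.00557 without siControl replicate 1 and -0.0263 without siHells replicate 1, the omissions giving -0.0263 to 0.0655. Over all genes, 1261 were higher and 1096 lower against a 1.5-fold change, in place of 4541 and 4612. The split of calls moved with the scaling, to 3773 higher and 5508 lower with library totals (40.7% of calls higher, beside 49.6%) and to 4163 and 4979 with upper-quartile scaling. With the replicate number as a block, 4502 genes were higher and 4586 lower and the members' calls stood at 4 and 4. The labels do not say what the replicate numbers share, and deviations from the group means of libraries with the same number had a correlation of 0.0499. The lowest counts, 36 to 44 in siControl for Cxcl2 and Ccl12, limit the precision of those folds. Over the single-library omissions the log2 fold change ranged from 1.77 to 2.13 for Ccl12, from 1.35 to 1.54 for Cxcl2, from 0.94 to 1.35 for Ccl7 and from -1.74 to -1.24 for Ccl4.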

Other observations

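On chromosome 4, the run of ligands around Ccl27a held 4 further tested genes, Ccl27b, Gm13305, Gm13306 and Il11ra2, none of which passed the edgeR test (log2 fold change 0.14, -0.39, 0.07 and -0.43). Ccl27a itself had 184 and 152 counts with siControl against 87 and 124 with siHells. Its region holds near-identical copies of genes, so reads there may be split.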
